A study of Mus musculus with 9 samples.

Results

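The genes described here are cadherins and solitary protocadherins. They were taken as every gene of the count matrix whose symbol is Cdh or Pcdh followed only by a number. There were 32 such genes, 22 Cdh and 10 Pcdh, among the 21457 genes of the matrix. The rule uses the symbol alone and no measured value. It leaves out the clustered protocadherins, whose symbols carry a letter, and the more distant members of the superfamily. It also leaves out Pcdh11x, a solitary delta-1 protocadherin, because its symbol ends in a letter.

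Cadherins are cell surface proteins that bind the same or a related cadherin on a neighbouring cell in the presence of calcium, and their cytoplasmic tails are tied to actin through catenins. Type I cadherins such as N-cadherin (Cdh2) hold tissues together broadly, whereas type II cadherins are expressed in patchwork combinations in the nervous system. Delta protocadherins adhere more weakly and take part in axon growth and synapse formation. In the embryonic spinal cord, combinations of type II cadherins set which motor neurons (MNs) gather into a pool, the group of MNs that innervates 1 muscle. The question here is how the same genes are distributed over the cholinergic neurons of the adult cord.

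Nuclei came from spinal cords of 8-week-old mice carrying Chat-IRES-Cre and a Sun1-sfGFP nuclear envelope reporter (genotype Chat-iCre:+/wt; SUN-SfGFP:+/wt), so that every group shares the same alleles and a nucleus was sorted if its cell had expressed the cholinergic gene Chat at any time. There was no treatment. Each of 3 pools of 4 mice (2 males and 2 females, 4 males, or 4 females for replicates 1, 2 and 3) was cut into its cervical, thoracic and lumbar with sacral (L/S) parts, which gave 9 libraries with 3 per region. The matrix held 16042 nuclei, which the authors' annotation divides into 5054 skeletal MNs (clusters S1 to S3), 5613 visceral MNs (V1 to V10) and 5375 cholinergic interneurons (I1 to I8), 21 clusters in all.

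The unit of replication was the library. The deposited counts, corrected by the authors for sequencing depth, were summed per library over the nuclei of a class or cluster with at least 10 nuclei and are given as CPM, scaled to the total of that sum. Since sums hold many nuclei, a higher sum can mean more nuclei with a gene's RNA or more RNA per nucleus, and these cannot be told apart except where shares of nuclei are given. Library totals ran from 9751375 to 19432614 corrected counts, with a median per nucleus from 4712 (L/S replicate 1) to 16127 (cervical replicate 2). 33 barcodes occurred in more than 1 library among 16009 distinct barcodes. Genes specific to 1 sex matched the pool in 9 of 9 libraries.

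In 2 libraries the labels and the data disagreed, and in 1 of these a cluster of skeletal MNs carried raised markers of other classes. In skeletal MNs, Hoxc5 stood at 16.1, 82.5 and 15.6 CPM in the cervical replicates 1 to 3 and at 101.5, 9.44 and 94.5 CPM in the thoracic ones, and Hoxa9 stood at 0.145, 9.04 and 0 against 11.9, 0.629 and 15.8 CPM. The library labelled cervical replicate 2 therefore carried the Hox levels of the thoracic libraries, and the library labelled thoracic replicate 2 those of the cervical ones. An exchange of the 2 leaves the class differences between L/S and the mean of both rostral regions as they are, but it can change their p-values. With cervical and thoracic libraries fitted as 1 group, the count of members called in visceral MNs described further on was 9 in place of 8, and that of cluster V5 was 5 in place of 7. In cluster S2 of the library labelled cervical replicate 2 (71 nuclei), the summed skeletal MN markers were at 104.0 CPM against 363 to 524 CPM in the other 8 libraries, the visceral MN markers at 260.1 against 0 to 53.9 CPM, and the interneuron markers at 188.4 against 4.77 to 66.8 CPM. The alpha MN markers were at 501.5 CPM there and at 539.0 to 1459 CPM in the others. Named values of S2 are accordingly given with and without that library where it moves them.

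Of the 32 genes, 25 passed a minimum of 10 CPM in at least 3 of the cluster sums. By family, 3 of 4 type I cadherins passed, 11 of 13 type II cadherins, 3 of 3 delta-1 protocadherins (Pcdh1, Pcdh7, Pcdh9), 4 of 5 delta-2 protocadherins (all but Pcdh18), 2 of 5 other cadherins (Cdh13 and Cdh23) and 2 of 2 other protocadherins (Pcdh15 and Pcdh20). The genes that did not pass were Cdh1, Cdh5, Cdh16, Cdh17, Cdh19, Cdh26 and Pcdh18. Among them, Cdh5, the cadherin of endothelial cells, had a mean of at most 0.514 CPM in any of the 3 classes, and Cdh19, a cadherin of Schwann cell precursors and glia, at most 1.22 CPM. Many of the genes are long. The median length of the genes tested was 157.7 kb against 28.17 kb for all genes tested, and 9 of the 32 spanned more than 300 kb. Genes over 300 kb had a median log2 level that shifted by −0.242 to 0.306 between libraries. It was highest in the library labelled cervical of each of the 3 pools in all 3 classes, and had no common order between thoracic and L/S libraries. In replicate 2, the library so labelled carried the Hox levels of the thoracic libraries.

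Promoter sequences are shown for 3 genes whose levels differed between regions of the cord in the visceral MNs or their clusters described further on. The windows run from 250 bases before to 50 bases after the RefSeq transcription start on GRCm38.p6, 5′ to 3′ on the strand of the gene. Capitals mark TAAT or its reverse complement ATTA, the core letters bound by many homeodomain factors. The window of Cdh23 (chr10:60696441-60696740, minus strand) held 2 matches, and those of Cdh8 (chr8:99416422-99416721, minus strand) and Pcdh7 (chr5:57717831-57718130, plus strand) held 0.
Cdh23: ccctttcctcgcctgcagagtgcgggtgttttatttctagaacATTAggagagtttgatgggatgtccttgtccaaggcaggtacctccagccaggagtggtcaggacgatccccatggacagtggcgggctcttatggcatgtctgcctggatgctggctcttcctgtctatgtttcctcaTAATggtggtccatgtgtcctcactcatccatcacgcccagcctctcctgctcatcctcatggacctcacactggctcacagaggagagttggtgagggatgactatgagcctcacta
Cdh8: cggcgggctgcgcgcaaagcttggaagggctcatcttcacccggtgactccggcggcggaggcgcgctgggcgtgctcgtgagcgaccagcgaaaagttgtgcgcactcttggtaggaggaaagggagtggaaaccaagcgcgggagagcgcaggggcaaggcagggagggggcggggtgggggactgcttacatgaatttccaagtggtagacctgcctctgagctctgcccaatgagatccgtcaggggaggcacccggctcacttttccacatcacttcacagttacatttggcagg
Pcdh7: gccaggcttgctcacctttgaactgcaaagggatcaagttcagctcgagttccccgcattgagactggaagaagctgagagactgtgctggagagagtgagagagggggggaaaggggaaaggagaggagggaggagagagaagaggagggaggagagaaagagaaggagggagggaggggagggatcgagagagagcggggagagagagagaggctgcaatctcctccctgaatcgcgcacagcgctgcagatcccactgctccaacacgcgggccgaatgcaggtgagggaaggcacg
RefSeq windows were matched for 21 of the 32 genes, 24 windows in all. The letters occurred in 14 of these 24 windows (58.3%) and in 58.0% of 32851 mouse promoter windows of the same length, so their share was that of promoters at large.

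Skeletal MNs, visceral MNs and interneurons were first compared by the class sums of the 9 libraries, in which 23 of the genes passed the minimum. Classes and clusters were drawn by the authors from the same nuclei, so differences between them are given as a description and without a test. Cdh20, a type II cadherin whose gene lies at chr1:104768529-104995481 (plus strand, GRCm38), was highest in skeletal MNs. Its level ran from 182.8 to 325.4 CPM in the skeletal sums (250 ± 56.7, SD, n = 9), from 8.81 to 66.4 CPM in the visceral sums (31.2 ± 20.5) and from 45.2 to 92.3 CPM in the interneuron sums (66.3 ± 16.8). The classes did not overlap between skeletal MNs and either of the others. The log2 difference from interneurons was 1.84 ± 0.08 and varied little between libraries, whereas that from visceral MNs was 2.99 ± 0.64. Cdh20 was the 1 gene of 23 at least 2-fold higher in skeletal MNs than in both other classes in every library, a rule that 1.32% of all genes met (149 of 11292).

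Cdh3, the type I cadherin known as P-cadherin, met the same rule in interneurons. It stood at 18.2 ± 7.07 CPM in interneurons, 2.13 ± 0.62 CPM in skeletal MNs and 1.24 ± 0.82 CPM in visceral MNs (n = 9 each). It was the 1 gene of 23 at least 2-fold higher in interneurons in every library, which 0.824% of all genes were, and on thinned nuclei it no longer met the rule. Cdh3 reached the minimum of 10 CPM in interneuron sums alone, with at most 3.12 CPM in skeletal and 2.88 CPM in visceral sums. Cdh3 thus entered through the class where it was high, and is given as values rather than as support for the count. Its class level came mostly from cluster I1, at 60.0 CPM with a count in 31.5% of nuclei, whereas the next cluster, I7, was at 10.5 CPM and I2, I5 and I8 had counts in 0.928%, 0.729% and 1.02% of nuclei. No gene of the 23 met the rule for visceral MNs, which 0.584% of all genes met.

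Other members differed between classes with less uniform steps. Pcdh17, a delta-2 protocadherin, was at 332 ± 27.3 CPM in skeletal MNs against 140 ± 52.9 CPM in visceral MNs and 175 ± 21.5 CPM in interneurons. Cdh22 was at 190 ± 37.4, 47.7 ± 13.5 and 97.7 ± 13.4 CPM in the same order, and Pcdh9 at 8226 ± 1404, 3828 ± 876 and 5082 ± 1156 CPM. All of these had their highest mean in skeletal MNs.

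Cdh8, Cdh6 and Cdh18, all type II, had their lowest mean in skeletal MNs. Cdh8 was at 58.3 ± 45.1 CPM in skeletal MNs, 431 ± 223 CPM in visceral MNs and 545 ± 132 CPM in interneurons. Cdh18 was at 404 ± 157, 684 ± 262 and 1614 ± 407 CPM in that order, and Cdh6 was highest in visceral MNs (82.2 ± 38.7, 268 ± 112 and 150 ± 47.6 CPM). Cdh23, best known for the tip links of hair cells, was at 4.71 ± 1.96, 16.7 ± 18.0 and 61.1 ± 6.30 CPM. In hair cells its binding partner is Pcdh15, which was at 1446 ± 386, 1656 ± 501 and 1283 ± 274 CPM and so differed little between classes.

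Levels were then set out over the 21 clusters. In 19 of 25 genes the cluster with the highest mean was at least 8 times the lowest (both raised by 5 CPM), whereas 9.44% of the 14465 genes tested had such a range (1366). The median log2 range over clusters was 3.51 for the cadherins and protocadherins and 1.07 for all genes. Fewer of the genes stood far above their median cluster. The highest cluster was at least 8 times the median cluster in 6 of 25, Cdh3, Cdh6, Cdh20, Cdh23, Pcdh8 and Pcdh20, against 8.86% of all genes (1282), and the last 2 of these peaked at only 11.1 and 8.24 CPM. The median cluster of Cdh3, Cdh23, Pcdh8 and Pcdh20 was at 1.53, 7.24, 0.641 and 0.466 CPM. These genes passed the minimum through their higher clusters alone and are given as values rather than as support for the count. Only Cdh6 and Cdh20 then remain, so the count is not read as an excess over the 8.86% of all genes. Cdh3 and Cdh23 are also among the 19 genes above. Such genes could be high in several clusters. Cdh6 was at 819, 811 and 643 CPM in V9, I5 and V4, and Cdh20 at 398, 327 and 275 CPM in S1, S2 and V10.

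**Figure D1:**
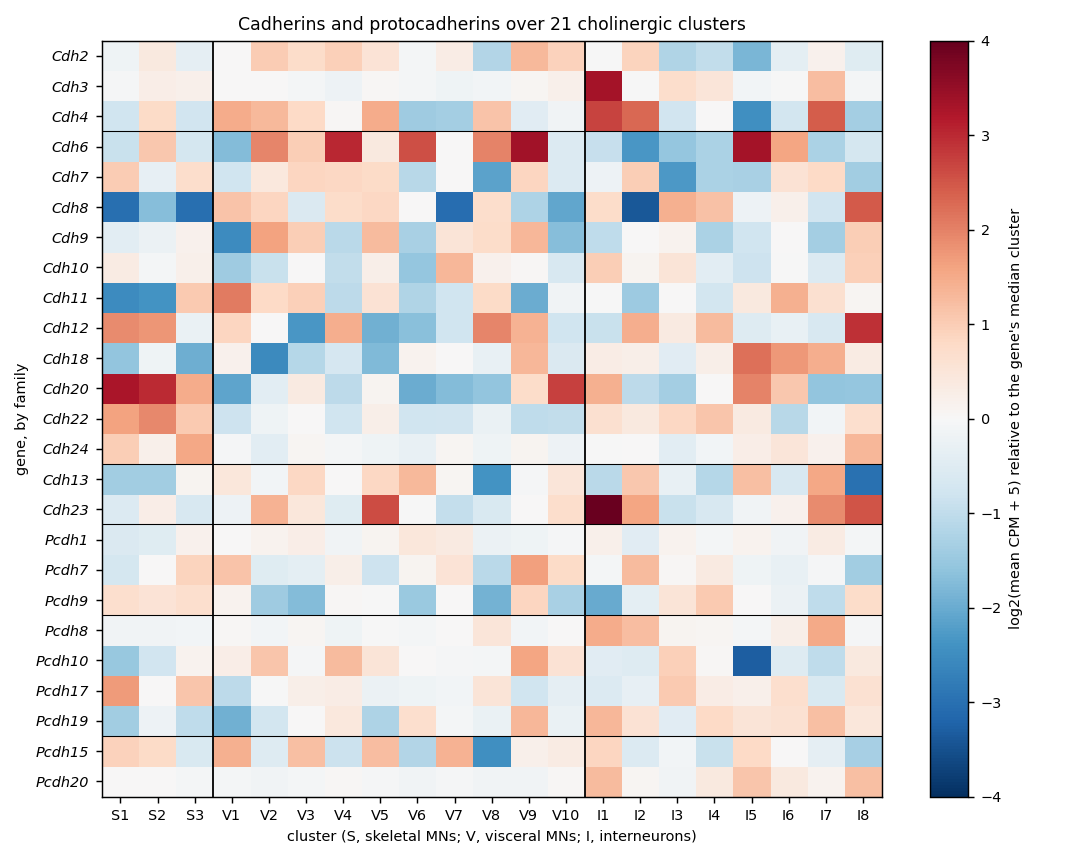
Mean level of each of the 25 genes that passed the minimum (rows) in the 21 clusters (columns), as log2 of the mean CPM + 5 relative to the gene's median cluster, averaged over libraries in which a cluster had at least 10 nuclei. Red cells are above and blue cells below that median, and columns carry different sets of high and low genes, for example Cdh12 and Cdh8 in I8 (1962 and 1793 CPM) and Cdh18 and Cdh6 in I5 (3962 and 811 CPM).

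Among interneurons, each of several clusters carried 1 or a few members at the highest level of all clusters. Cluster I1 had Cdh4 at 586 ± 54.4 CPM (R-cadherin, type I), Cdh23 at 186 ± 28.7 CPM and Cdh3 at 60.0 ± 20.8 CPM (n = 9), whereas its Pcdh9 was the lowest of the 21 clusters at 1317 CPM. Cluster I5 had Cdh18 at 3962 ± 833 CPM together with Cdh6 at 811 ± 110.5 CPM, and the lowest levels of Cdh4 (11.7 CPM), Cdh2 (51.2 CPM) and Pcdh10 (4.11 CPM). Cluster I8 had Cdh12 at 1962 ± 274 CPM and Cdh8 at 1793 ± 332 CPM (n = 8) and the lowest Cdh13 (56.4 CPM) and Pcdh7 (448 CPM).

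Cdh6 and Cdh8 were each high in different interneuron clusters and both low in I2. That cluster had the lowest level of both among the 21, 10.9 CPM of Cdh6 and 26.5 CPM of Cdh8, and there 9.53% and 14.1% of nuclei held a count (means of 9 libraries). In I3, 97.6% of nuclei held a Cdh8 count and 12.4% a Cdh6 count. In I5 the shares were 73.4% and 98.5%. Such shares depend on depth, and nuclei thinned to 4600 counts each gave 95.8% and 8.88% in I3, 61.5% and 95.4% in I5, and 10.8% and 4.70% in I2.

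Visceral clusters also differed, in part in the same members. V9 had the highest levels of Pcdh7 (3637 ± 661 CPM), Cdh6 (819 ± 283 CPM), Cdh2 (487 ± 94.7 CPM) and Pcdh10 (259 ± 59.4 CPM) of all clusters (n = 6). V1 had the highest Cdh11 (569 ± 127 CPM) and Pcdh15 (2963 ± 868 CPM), and the lowest Cdh20 (4.61 CPM), Cdh9 (3.15 CPM) and Pcdh17 (70.1 CPM). V7 resembled V1 in Pcdh15 (2935 ± 405 CPM), a difference smaller than the spread between libraries, and had the highest Cdh10 (694 ± 173 CPM). V8 had Cdh12 at 1007 ± 37.9 CPM (n = 3) and the lowest Pcdh15 (198.5 CPM). V10 was the 1 visceral cluster with a mean Cdh20 close to that of skeletal MNs, 275 CPM, but with an SD of 173 (n = 7).

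The remaining members varied less or were low throughout. Pcdh1 had the narrowest range of the genes above 5 CPM in all clusters, from 7.64 CPM in S1 to 20.5 CPM in V6. Cdh24 peaked in S3 at 18.5 CPM and Pcdh19, a delta-2 protocadherin on the X chromosome, in I1 at 99.5 CPM. Cdh9, a type II cadherin, ran from 3.15 CPM in V1 to 139 CPM in V2. Cdh22 and Pcdh17 had their highest means in skeletal clusters, 262 CPM in S2 (284 CPM without the library labelled cervical replicate 2) and 504 CPM in S1.

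Pairs of clusters were then compared gene by gene, and a gene was counted where its means differed at least 4-fold and its libraries did not overlap. Over the 210 pairs the median number of genes counted was 4 of 25 (range 0 to 10). The median share was 16.0% of these genes against 2.60% of all genes. Cdh3, Cdh23, Pcdh8 and Pcdh20, which passed the minimum through their higher clusters alone, do not bear on this share. They were counted in 20, 42, 0 and 0 pairs, and the share without them was not computed. At least 3 genes were counted in 160 pairs, 1 in 13 pairs and none in 8. The 8 pairs without a difference of this size were S1 and S2, I3 and I4, V4 and V9, and V2 with V3, V2 with V5, and V3 with V5, V7 and V10. The most, 10, separated S1 from I7, with Cdh23 among them. Cdh6 was counted in 86 pairs, Cdh12 in 78, Cdh4 and Cdh8 in 68 each, and Cdh20 in 65.

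Across the 21 clusters, some genes went up and down together. As a description over cluster means that share libraries and depth, the highest Pearson's r was 0.72 between Cdh2 and Cdh7 (Spearman's rho 0.65), followed by 0.70 between Cdh4 and Pcdh8 (rho 0.46), 0.69 between Cdh3 and Pcdh8 (rho 0.30), whose levels were low outside a few clusters, and 0.67 between Cdh18 and Pcdh19 (rho 0.75). The lowest were −0.76 between Cdh12 and Pcdh1 (rho −0.79) and −0.69 between Cdh12 and Cdh13 (rho −0.66).

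The authors' annotation names S2 as alpha MNs, which drive force-producing muscle fibres, S3 as gamma MNs, which set the tension of muscle spindles, and S1 as Type 3. Cdh11, a type II cadherin, was high in S3 and low in both others. Its level was 199.8 to 364.9 CPM in S3 (median 265.4), 5.04 to 33.9 CPM in S1 and 3.81 to 68.7 CPM in S2. The highest S2 value belonged to the library labelled cervical replicate 2, and without it S2 lay between 3.81 and 26.0 CPM. The log2 difference between S1 and S3 was −3.62 ± 0.55 (SD, n = 9) and between S2 and S3 −3.64 ± 0.87, or −3.86 ± 0.60 without that library.

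Cdh12 went the other way. It ran from 742.5 to 1083 CPM in S1 and from 728.5 to 1022 CPM in S2, but from 139.7 to 306.5 CPM in S3, a log2 difference of 2.20 ± 0.33 between S1 and S3 and of 2.08 ± 0.47 between S2 and S3 (2.04 ± 0.49 without the library labelled cervical replicate 2). Pcdh15 had the same direction, with means of 2099 ± 517, 1894 ± 372 and 732 ± 236 CPM in S1, S2 and S3, and of 1926 ± 385 CPM in S2 without that library. All libraries of S1 and S2 lay above all libraries of S3 for both genes.

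**Figure D2:**
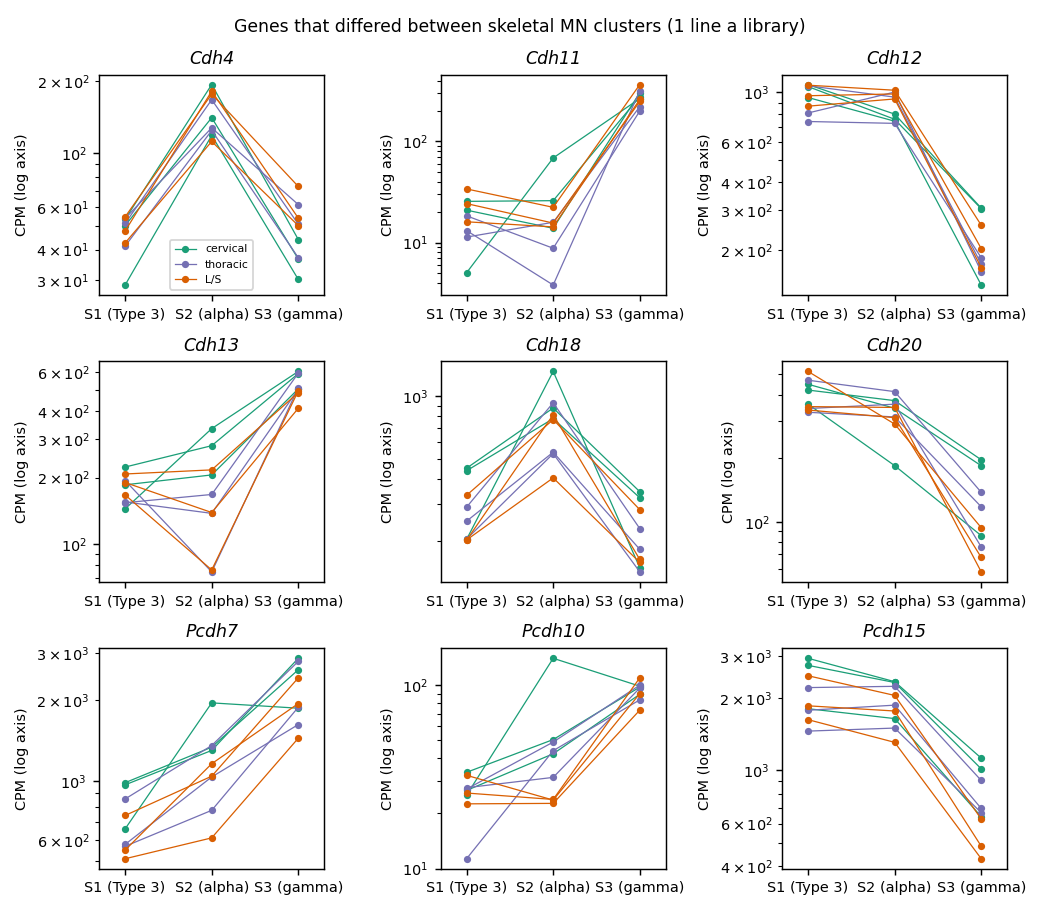
Level in CPM on a log axis of the 9 members that differed at least 2-fold in all 9 libraries between 2 of the skeletal clusters S1, S2 and S3, with a line for each library, coloured by region. Cdh11 sits at 199.8 to 364.9 CPM in S3 and at or under 68.7 CPM in S1 and S2, Cdh12 sits the other way round, and Cdh4 is at 112.1 to 192.8 CPM in S2 and at or under 73.0 CPM in S1 and S3.

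Between S1 and S3, 7 of 22 genes differed at least 2-fold in the same direction in all 9 libraries, against 2.66% of all genes (305 of 11465). Cdh12, Cdh20 and Pcdh15 were higher in S1, and Cdh11, Cdh13, Pcdh7 and Pcdh10 were higher in S3. Cdh20 ran from 330.3 to 515.8 CPM in S1, 184.5 to 413.8 CPM in S2 and 57.9 to 196.7 CPM in S3. The lowest S2 value, the only one that overlapped S3, came from the library labelled cervical replicate 2, and without it S2 ran from 290.5 CPM. Pcdh7 had means of 712 ± 183 CPM in S1 and 2165 ± 525 CPM in S3, with a log2 difference of −1.60 ± 0.14 that varied little between libraries. Cdh13, which is anchored to the membrane by a lipid and lacks a cytoplasmic tail, was at 180 ± 26.7 CPM in S1 and 523 ± 63.4 CPM in S3.

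Between S2 and S3 the count was 4 of 22, against 2.15% of all genes (246), namely Cdh11, Cdh12, Cdh18 and Pcdh15. Without the library labelled cervical replicate 2 it was 5, with Cdh13 added at a log2 difference of −1.75 ± 0.63 (n = 8). Cdh18 was at 773 ± 271 CPM in S2 and 219 ± 79.4 CPM in S3, and at 705 ± 190 CPM in S2 without that library.

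Between S1 and S2 the single member counted was Cdh4, at 28.5 to 54.6 CPM in S1, 112.1 to 192.8 CPM in S2 and 30.1 to 73.0 CPM in S3, with a log2 difference of −1.56 ± 0.24 between S1 and S2 and −1.52 ± 0.22 without the library labelled cervical replicate 2. Among all genes 0.863% met this rule (99). Cdh4 was thus high in alpha MNs and low in both other skeletal clusters, with no overlap between libraries. S2 of thoracic replicate 3 rested on 26 nuclei.

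Other members differed between S1 and S2 with the same sign in all 9 libraries, though not 2-fold in each. Pcdh17 was at 442.2 to 621.3 CPM in S1 and 116.3 to 236.1 CPM in S2, with no overlap and a log2 difference of 1.73 ± 0.40 (1.69 ± 0.41 without the library labelled cervical replicate 2). Cdh7 was also higher in S1 (1.35 ± 0.46, or 1.46 ± 0.36 without that library). Cdh6 (−1.74 ± 0.80, or −1.66 ± 0.83), Cdh18 (−1.42 ± 0.60, or −1.26 ± 0.39) and Pcdh19 (−1.29 ± 0.61, or −1.16 ± 0.50) were higher in S2.

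A motor pool is a small part of all alpha MNs, so the spread of each gene between single nuclei of S2 was examined in the 8 libraries with at least 50 S2 nuclei (58 to 395). For each gene the share of nuclei with at least 1 count was divided by the share expected if all nuclei of a library had the same mean level. A low ratio means counts gathered in fewer nuclei, and an even spread gives a ratio of 1. Where the expected share is near 100.0%, however, the ratio stays near 1 unless some nuclei lack the RNA. For such genes it cannot show whether levels were even. Pcdh9 and Pcdh15 were found in nearly every nucleus, with a median share of 100.0% for both.

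Of 14 members with sufficient counts, 2 had a median ratio under 0.8, Cdh8 and Cdh6, against 1.86% of all genes over the minimum (68 of 3658). These had a mean of at least 0.2 counts per nucleus in every library. With a minimum of 0.5 in its place, neither gene qualified (lowest means of 0.223 for Cdh8 and 0.362 for Cdh6) and the count was 0. The median ratio was 0.930 over the 14 members and 1.012 over all genes. Cdh8 was found in 13.0% to 47.9% of S2 nuclei in the 7 libraries other than the one labelled cervical replicate 2 and in 94.4% there. Its ratio had a median of 0.632 over 8 libraries (range 0.385 to 0.947) and of 0.625 over 7 (0.385 to 0.723).

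Cdh6 was found in 24.1% to 69.3% of nuclei in the same 7 libraries and in 95.8% in the library labelled cervical replicate 2. Its ratio was 0.749 over 8 libraries (0.630 to 1.004) and also 0.749 over 7 (0.630 to 0.795). For scale, the share of nuclei with a count of Cdh8 was 18.0% in S1 and 16.6% in S3, and the share for Cdh6 25.1% and 28.3% (means of 9 libraries). Cdh8 shares of S2 in several libraries were therefore no higher than in the other skeletal clusters, and that of thoracic replicate 1 (13.0%) was no higher than in I2. On nuclei thinned to 4600 counts, Cdh6 kept a ratio of 0.772, whereas Cdh8 stood at 0.695 on a mean too low to be counted.

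**Figure D3:**
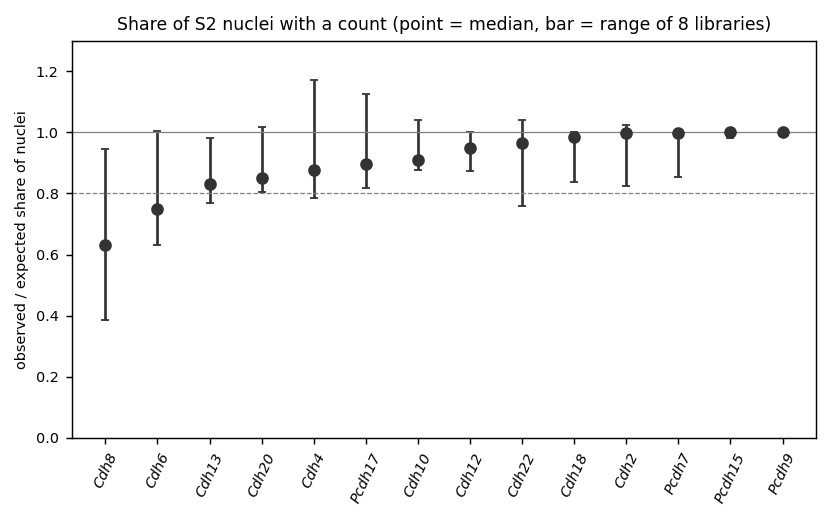
Observed share of S2 nuclei with at least 1 count divided by the share expected from equal levels (vertical axis, ratio) for the 14 members with sufficient counts (horizontal axis), with a point for the median and a bar for the range of 8 libraries. The dashed line marks a ratio of 0.8, under which the medians of Cdh8 (0.632) and Cdh6 (0.749) lie, and the solid line a ratio of 1. For genes found in nearly every nucleus, such as Pcdh9 and Pcdh15, a ratio near 1 does not show even levels.

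Regions of the cord were compared by limma on log2(CPM + 5) of the library sums, with p-values adjusted over all genes of a fit by the Benjamini-Hochberg method (threshold 0.05). Differences are log2 with their standard error. The first contrast set L/S libraries against the mean of cervical and thoracic libraries. In visceral MNs 8 of 21 members were called against 4.27% of all genes (428 of 10031). Of the 8, 4 were higher and 4 lower in L/S. Cdh23, among those higher, passed the minimum through the L/S libraries alone and does not bear on the count. The median absolute log2 difference was 0.75 over the 21 members and 0.14 over all genes.

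Cdh4 (chr2:179442431-179899373, plus strand) was the member with the smallest p. In visceral MNs its level was 307.9, 305.9 and 225.4 CPM in the L/S libraries, against 88.2, 74.4 and 123.4 CPM in the cervical and 61.8, 93.4 and 82.0 CPM in the thoracic ones. The groups did not overlap, and the log2 difference was 1.64 ± 0.19 (adjusted p = 0.001638). Cdh23 stood at 53.6, 39.1 and 21.4 CPM in L/S against 2.77 to 8.80 CPM in the 6 rostral libraries, a log2 difference of 1.91 ± 0.26 (adjusted p = 0.003712). It reached the minimum of 10 CPM in the L/S libraries alone and so entered the test through the group where it was high, and is given as values rather than as support for the count. With no filter on low values it was called as well, and with any 1 L/S library left out it was not tested.

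The other members that rose in L/S were Pcdh17 and Cdh22. Pcdh17 stood at 234.3, 206.4 and 180.1 CPM in L/S and at 88.9 to 122.7 CPM rostrally (0.93 ± 0.12, adjusted p = 0.003287). Cdh22 stood at 67.8, 68.8 and 55.7 CPM against 34.0 to 49.5 CPM (0.64 ± 0.11, adjusted p = 0.01499). Neither gene overlapped between the groups.

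Pcdh7 (chr5:57717967-58133230, plus strand) fell most. It stood at 565.8, 396.5 and 679.2 CPM in L/S and at 1296 to 2273 CPM in the 6 rostral libraries, a log2 difference of −1.77 ± 0.21 (adjusted p = 0.001872). Cdh7, a type II cadherin, stood at 54.2, 36.2 and 36.8 CPM against 75.0 to 117.1 CPM (−1.08 ± 0.18, adjusted p = 0.008974). Both were lower in each L/S library than in any rostral one.

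Pcdh15 stood at 1245, 946.7 and 1126 CPM in L/S against 1524 to 2434 CPM (−0.79 ± 0.15, adjusted p = 0.02031), and Cdh2 at 226.6, 166.3 and 183.6 CPM against 265.5 to 407.9 CPM (−0.75 ± 0.15, adjusted p = 0.02409). These 2 depended most on the libraries and clusters included. V8 and V9 belonged to nearly 1 part of the cord, since V8 had 463 of its 467 nuclei in L/S and V9 had 4 of its 247 there. Without V8 and V9, 5 members were called. Cdh4 (1.80), Cdh23 (2.35), Pcdh17 (0.90), Cdh22 (0.70) and Pcdh7 (−1.73) held their calls, whereas Cdh7 (−0.70, adjusted p = 0.165), Cdh2 (−0.39, adjusted p = 0.427) and Pcdh15 (−0.39, adjusted p = 0.528) lost theirs. Leaving out L/S replicate 1, 2 or 3 left 5, 3 and 4 calls.

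**Figure D4:**
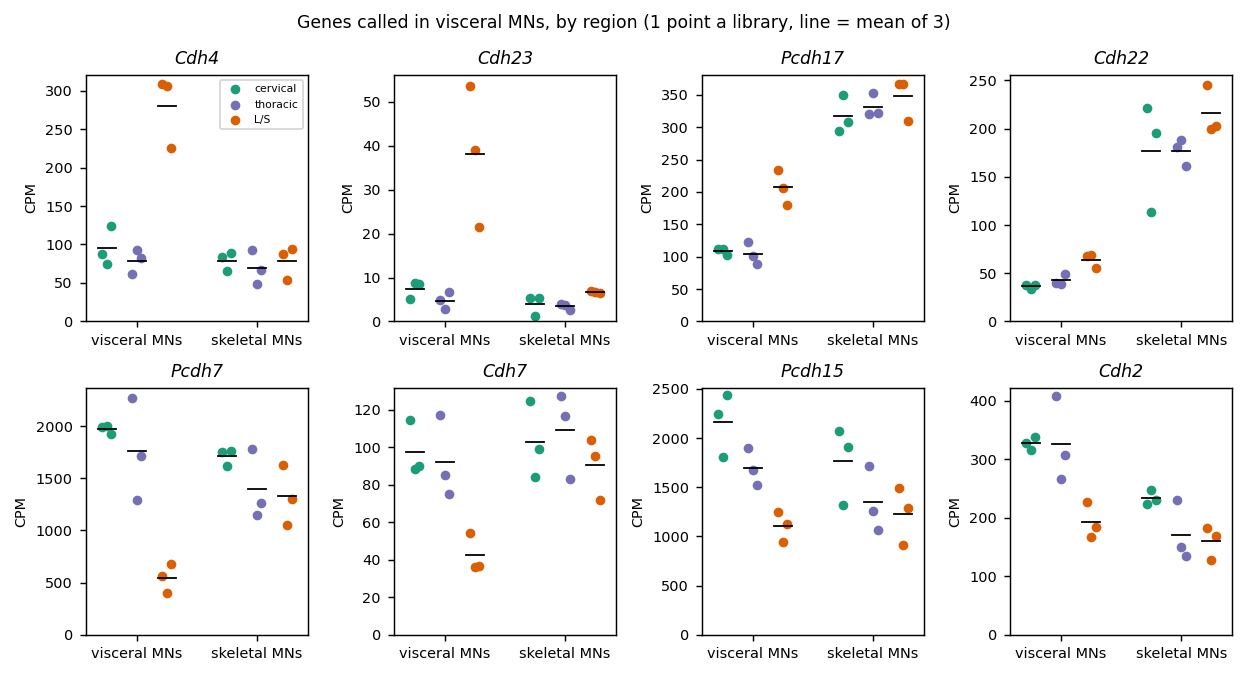
Level in CPM of the 8 members called in visceral MNs between L/S and rostral cord, in visceral and in skeletal MNs, with a point for each library and a line for the mean of the 3 libraries of a region. In visceral MNs the L/S libraries of Cdh4 lie at 225.4 to 307.9 CPM above all others and those of Pcdh7 at 396.5 to 679.2 CPM below all others, whereas in skeletal MNs 7 of the 8 were tested and none was called, and Cdh23 was too low to be tested.

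In skeletal MNs none of 21 members was called by limma for the same contrast, against 0.01% of all genes (1 of 9999), and none had an unadjusted p under 0.05, which 402 genes had. Log2 differences ran from −0.39 (Cdh18) to 0.31 (Pcdh19) with standard errors of 0.101 to 0.398. The median of all genes was itself at 0.12 in this contrast. The lumbar Hox genes (paralog groups 10 and 11) summed to 47.3 to 65.9 CPM in L/S and 0 to 3.54 CPM rostrally, yet 1 gene was called. The absence of calls thus cannot show that the members are alike between L/S and rostral skeletal MNs. Cdh4 stood at 87.6, 53.7 and 94.6 CPM in L/S and at 49.1 to 92.3 CPM in the rostral libraries (0.07 ± 0.22, adjusted p = 0.9345). Cdh20, the member at least 2-fold higher in skeletal MNs than in both other classes in every library, was at 224 ± 41.2 CPM in L/S, 275 ± 74.1 CPM in the cervical and 252 ± 60.7 CPM in the thoracic libraries (adjusted p = 0.900).

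Within the skeletal clusters limma called none of 20 members in S1 (0% of all genes, 439 at an unadjusted p under 0.05, 1 of them a member), none of 21 in S2 (0%, 245 and 1) and none of 21 in S3 (0.0711%, 579 and 5). The member with the smallest adjusted p in S3 was Cdh22, which was higher in L/S by 0.56 (adjusted p = 0.239). Leaving out the library labelled cervical replicate 2 left the counts of members at 0 in all 3.

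The difference between the classes was tested directly as the visceral minus the skeletal L/S contrast. It was called for 6 of 22 members, against 7.13% of all genes (784 of 10990), where Cdh23 does not bear on the count. It was −1.55 ± 0.13 for Pcdh7 (adjusted p = 9.88e-06), −0.87 ± 0.12 for Cdh7 (adjusted p = 0.000756) and −0.47 ± 0.12 for Pcdh15 (adjusted p = 0.0336), members lower in L/S visceral MNs. For the members higher there it was 1.57 ± 0.28 for Cdh4 (adjusted p = 0.00315), 1.46 ± 0.30 for Cdh23 (adjusted p = 0.0086), which was at or under 7.02 CPM in every skeletal sum and passed the minimum through L/S visceral sums alone, and 0.83 ± 0.11 for Pcdh17 (adjusted p = 0.000497). Without V8 and V9 the count was 4, with Cdh7 (adjusted p = 0.0692) and Pcdh15 (adjusted p = 0.881) no longer called. Pcdh15 also lost its call without the library labelled cervical replicate 2.

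In interneurons limma called none of 22 members, against 0.051% of all genes (5 of 9805), although 6 members were among the 331 genes with an unadjusted p under 0.05. The largest was Cdh6 at −0.82 (adjusted p = 0.185). Cdh6 was called without the library labelled cervical replicate 2, and Cdh18 with the pool of mice as a block.

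Cervical and thoracic libraries were compared in the same fits. None of the members was called in any class, and none of all genes (0%) in any, with 607, 160 and 189 genes at an unadjusted p under 0.05 in skeletal MNs, visceral MNs and interneurons by limma. In skeletal MNs 4 members were among them, led by Cdh8 at 1.78 ± 0.44 (adjusted p = 0.719) and Cdh6 at 1.22 ± 0.46 (adjusted p = 0.719). Cdh8 stood at 74.8, 160.7 and 79.1 CPM in the cervical and 39.0, 29.4 and 13.2 CPM in the thoracic libraries, and the highest value came from the library labelled cervical replicate 2 whose S2 nuclei carried visceral markers. The long-gene median, highest in the library labelled cervical of each pool, moves with this contrast of labels, and its part was not tested. The count of members called was also 0 without both libraries whose Hox levels went against their labels. The main contrast follows the labels, and no fit with those libraries exchanged was run. Hoxc5, far apart in the other cervical and thoracic libraries, was not called in skeletal MNs either. The absence of calls thus cannot show that the members are alike in cervical and thoracic cord.

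Whether the L/S difference of the class was found within single clusters was tested in the 14 visceral and interneuron clusters that could be fitted. There were 40 calls in 289 tests, 36 in visceral and 4 in interneuron clusters, 21 of them higher and 19 lower in L/S, and 16 of 25 members were called in at least 1 cluster. V2 had 11 of 21 members called (3.07% of all genes), V3 6 of 21 (1.55%), V4 5 of 20 (2.74%), V5 7 of 21 (1.38%) and V6 7 of 19 (8.89%). V1 and V7 had 0 of 18 (0%) and 0 of 20 (0.0783%). Among interneurons, I6 had 3 of 21 (0.845%) and I8 1 of 23 (0.0869%), and the remaining 5 had none (I1 with 0%, I2 with 0.511%, I3 with 0%, I4 with 0.0408% and I5 with 0.0286% of all genes). In the clusters without a call, limma gave 7 members in V1, 5 in V7, 0 in I1, 9 in I2, 3 in I3, 2 in I4 and 4 in I5 an unadjusted p under 0.05. With the pool of mice as a block, V1 (Cdh18), V7 (Pcdh7) and I2 (Cdh7 and Cdh18) also had calls, V6 had 4, I8 had 3 and V5 had 10.

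Several of these counts rested on single libraries. Without L/S replicate 1, 2 or 3, the count was 10, 7 and 7 in V2, 3, 1 and 3 in V3, 3, 3 and 4 in V4, 2, 2 and 3 in V5, and 0, 1 and 0 in I6. V5 also had 2 without cervical replicate 1 or 3, and V6 had 3 without cervical replicate 1, cervical replicate 3 or thoracic replicate 3. I8 had 2 without thoracic replicate 1 or 3. For V6 no count is given without L/S replicate 1 or 2, since 1 L/S library was then left.

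Cdh4 was higher in L/S in 7 of 7 visceral clusters and called in V2, V3, V4, V5 and V6, and it was also called in I6 (1.57 ± 0.25, adjusted p = 0.01037). In V2 it stood at 465.3, 454.3 and 560.0 CPM in L/S and at 65.4 to 99.3 CPM in the 6 rostral libraries (2.52 ± 0.18, adjusted p = 1.1e-05). In V3 the difference was 2.64 ± 0.27 (adjusted p = 0.000365). In the clusters without a call it was smaller, 0.63 ± 0.25 in V1 (adjusted p = 0.4717) and 0.55 ± 0.42 in V7 (adjusted p = 0.7234).

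Pcdh7 was lower in L/S in 7 of 7 visceral clusters and called in V2, V4 and V5. In V4 it stood at 324.4, 210.3 and 452.9 CPM in L/S and at 1331 to 2929 CPM rostrally (−2.53 ± 0.28, adjusted p = 0.000464). Cdh7 fell in V2, V3 and V4, by up to 2.36 on the log2 scale (V4, adjusted p = 8.3e-05). These directions were those of the whole class.

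Cdh8 (chr8:99024471-99416471, minus strand) was not called in visceral MNs as a class, where it was at 879.9, 572.3 and 529.9 CPM in L/S and at 143.5 to 524.7 CPM rostrally (1.12 ± 0.36, adjusted p = 0.1652). It was called in 4 of their clusters. It stood at 1457, 1167 and 1084 CPM in L/S and at 168.2 to 385.4 CPM rostrally in V2 (2.22 ± 0.25, adjusted p = 0.000265). In V3 it stood at 829.8, 463.6 and 447.9 CPM against 0 to 97.1 CPM (4.22 ± 0.68, adjusted p = 0.007085), and in V5 at 1348, 934.6 and 983.7 CPM against 60.3 to 559.7 CPM in the 4 rostral libraries with enough nuclei (2.94 ± 0.55, adjusted p = 0.02916). V4 had the opposite sign without a call, 211.0, 189.0 and 393.4 CPM in L/S and 283.9 to 1258 CPM rostrally.

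Cdh6 fell in V2 (−1.28 ± 0.24, adjusted p = 0.00917) and in V4, where it stood at 122.8, 114.4 and 283.6 CPM in L/S and 678.0 to 1097 CPM rostrally (−2.41 ± 0.27, adjusted p = 0.000464). Cdh23 rose in V2 and V5, in V2 from 0 to 11.9 CPM rostrally to 82.3, 71.3 and 68.0 CPM in L/S (3.26 ± 0.43, adjusted p = 0.000923). In V2 it again passed the minimum through the L/S libraries and does not bear on the count of that cluster. Pcdh9 rose in V2 and V3, in V2 from 390.6 to 1259 CPM rostrally to 6155, 2909 and 4500 CPM (2.77 ± 0.35, adjusted p = 0.000647). The libraries did not overlap for any of these.

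**Figure D5:**
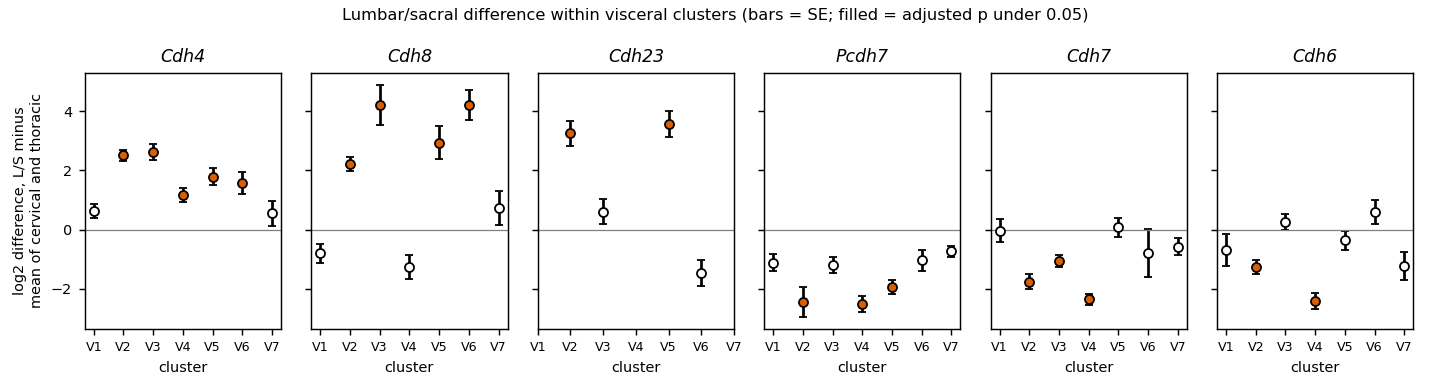
Log2 difference of L/S from the mean of cervical and thoracic cord (vertical axis) in each of the 7 fitted visceral clusters (horizontal axis) for 6 members, with bars for the standard error and filled points for an adjusted p under 0.05. Cdh4 lies above 0 and Pcdh7 below 0 in 7 of 7 clusters, whereas Cdh8 lies between −1.27 in V4 and 4.22 in V3.

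A few members moved in opposite directions between clusters. Cdh10 was lower in L/S in V5 (−1.01 ± 0.21, adjusted p = 0.04887) and higher in V6 (4.08 ± 0.48, adjusted p = 0.002802). Cdh13 was higher in V2 (1.73 ± 0.30, adjusted p = 0.006066) and lower in V6 (−0.92 ± 0.19) and I6 (−1.21 ± 0.19, adjusted p = 0.009679). Cdh11 was higher in V2 and V6 and lower in I6 (−0.90 ± 0.17, adjusted p = 0.02609), and in I8 Pcdh15 was lower (−1.91 ± 0.17, adjusted p = 0.000306). The differences between clusters were not tested. V6 values of L/S rested on 2 libraries of 13 and 10 nuclei, and V6 could not be fitted with at least 30 nuclei per sum.

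Relatives and partners of these genes were counted in the same fits. Of 8 catenins and related linkers of the cadherin tail tested in visceral MNs, 0 were called for L/S by limma and 1 had an unadjusted p under 0.05. Of 10 other members of the cadherin superfamily tested there, 3 were called, beside 4.27% of all genes in this fit. Fat4, a giant protocadherin of planar polarity, was higher in L/S by 1.01 ± 0.15 (adjusted p = 0.004876). Pcdh11x, the solitary protocadherin that the symbol rule left out, was lower (−0.89 ± 0.14, adjusted p = 0.009126). The calsyntenin gene Clstn2 was also lower (−0.98 ± 0.19, adjusted p = 0.02399). In skeletal MNs and interneurons limma called none of either list, with 1 gene of each list at an unadjusted p under 0.05 in both classes. Pcdh11x in skeletal MNs stood at −0.74 ± 0.15 (adjusted p = 0.3677), and its difference between visceral and skeletal MNs was −0.14 ± 0.13 (adjusted p = 0.5956).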

How the data were processed

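Single-nucleus RNA-seq libraries (10x Genomics) were aligned and counted by the authors with Cell Ranger 3.1.0 and corrected for depth with SCTransform in Seurat, per the labels and the methods. The deposited values are such corrected counts, whole numbers that are no longer raw counts, and were handled as a score, so no count model was used. The authors' annotation supplied the cluster and class of 16042 of its 34231 nuclei. It was taken as given, and no doublet caller was run. The members and gene lists were chosen with earlier results of these data known.

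Corrected counts were summed per library and class or cluster (at least 10 nuclei), scaled to CPM, and fitted as log2(CPM + 5) with limma 3.58.1 (trend, R 4.3.3) on genes that reached 10 CPM in 3 or more sums. Fold changes of low genes are understated on this scale. Visceral and skeletal contrasts were compared within libraries. Each library is a pool of 4 mice, so p-values measure the spread between 3 pools. Pools of the same number are the same mice in 3 regions. Deviations of same-numbered libraries correlated with a mean r of 0.528 (range −0.22 to 0.922, over 0.1 in 21 of 27 pairs). The mean between different numbers, −0.274, is no separate contrast, since deviations within a region sum to 0. Cervical replicate 3 correlated at −0.22 to −0.014 with the thoracic and L/S libraries of replicate 3. With those of replicate 1 its r was 0.318 to 0.458. The design was fitted without the pool, and with the pool as a block as an alternative.

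The members named are those called, those with the highest or lowest level in a cluster, and those that met the 2-fold rules in every library. The fit was tested on simulated data with 200 changed genes. It recovered 92.2%, 98.9% and 56.5% of 2-fold and 100%, 100% and 95.8% of 4-fold changes in skeletal MNs (9763 genes), visceral MNs (9794) and S2 (10189), and 5.61%, 11.6% and 5.26% of the calls were false. The simulation gave every gene the same fixed spread beyond counting noise and no shared deviation of pools. Members could vary more, for example Cdh8 at 58.3 ± 45.1 and Cdh6 at 82.2 ± 38.7 CPM in the skeletal sums. The recovered shares do not hold for such members. Thinned nuclei held 4600 counts, and 8.63% of nuclei had fewer and were left out. Intervals cover the spread between libraries. Gene positions are those of GENCODE M21 (GRCm38).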

Additional observations from a re-analysis of the deposited data

Results flagged for a closer look

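In 96 groups of 9 libraries checked for a value far from the others (Dixon's test at the 95% level), 4 exceeded the limit, and chance alone exceeds it in about 1 in 20 groups. Of these, 3 came from the library labelled cervical replicate 2. Cdh8 stood at 160.7 CPM in its skeletal MNs, against 13.2 to 79.1 CPM in the other 8 libraries. In its cluster S2, Cdh11 stood at 68.7 CPM (3.81 to 26.0 CPM elsewhere) and Pcdh10 at 140.3 CPM (22.7 to 50.6 CPM elsewhere). In the same 71 nuclei the visceral MN markers summed to 260.1 CPM and the interneuron markers to 188.4 CPM, while the alpha MN markers were at 501.5 CPM (539.0 to 1459 CPM elsewhere), and their part in these values was not tested. The remaining value was Pcdh10 in S1 of thoracic replicate 3, at 11.3 CPM, the lowest of its group.

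The L/S difference of visceral MNs differed from that of skeletal MNs by the test of the difference for 6 members, at −1.55 for Pcdh7, −0.87 for Cdh7, −0.47 for Pcdh15, 0.83 for Pcdh17, 1.46 for Cdh23 and 1.57 for Cdh4 on the log2 scale.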

How the results depend on the processing

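Of 293 alternative values of the counts of members, 279 stayed within 1.5 times the main count. A count of 0 that stayed at 0 was included, as in skeletal MNs, S1 to S3 and between cervical and thoracic cord. The 279 therefore do not measure how steady the counts above 0 were. Of 247 alternative values for the members called in visceral MNs or in the difference between classes, 218 kept their call, 29 lost it and 0 reversed. Pcdh15 in the difference between classes lost its call in 10 of 17 alternatives, and Cdh2 and Pcdh15 in visceral MNs in 6 of 19 each. The cause was not tested except where fewer samples or clusters entered. For L/S against rostral cord, visceral MNs had 8 members called, 5 without V8 and V9 (chosen after seeing the data), and 3 to 9 with 1 library left out, with 3 without L/S replicate 2 and 4 without L/S replicate 3. Calls within clusters went from 40 to between 25 and 43, with 25 without L/S replicate 2 and without L/S replicate 3, and 4 to 6 members were called in the difference between classes. Interneurons had 0 members called, and 1 without cervical replicate 2 and without both libraries whose Hox levels go against their labels (chosen after seeing the data).

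With the replicate block of the pool of mice, 1 member was called in interneurons (Cdh18), 9 in place of 8 in visceral MNs and 50 in place of 40 within clusters. By cluster it left V6 with 4 calls in place of 7 and I8 with 3 in place of 1, and gave calls in I2, V1 and V7. The block changed no call of a member in skeletal MNs, in S1 to S3 or between cervical and thoracic cord. The difference between classes already holds the library, so the block was not run for it. Among descriptions, the count of members higher in interneurons went from 1 to 0 on thinned nuclei and was 1 to 2 with 1 library left out. Members uneven between S2 nuclei went from 2 to 1 on thinned nuclei and to 0 with a minimum mean of 0.5. S1 and S2 differed in 1 to 2 members with 1 library left out. Libraries of 4712 to 16127 counts per nucleus limit shares of nuclei more than sums.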
